A study of Mus musculus with 36 samples.

Results

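BV-2 cells activated with lipopolysaccharide (LPS) for 24 h were compared with and without cannabidiol (CBD). The comparison held 6 of the 36 libraries of the series, 3 of LPS with CBD and 3 of LPS alone, and every gene listed in the table of that pair of groups, 17452 in all. Of these, 11671 genes had a normalized count of at least 10 in at least 3 of the 6 libraries and were tested. Because 1 group alone could carry a gene past that limit, some tested genes were close to 0 in the other group.

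BV-2 is an immortalised line of mouse microglia, labelled wild type, so each library came from the same proliferating line grown in a dish and not from brain tissue. The LPS group received LPS of Escherichia coli at 600 ng/mL for 24 h. The other group received the same LPS together with CBD at 6 µM for 24 h. For its LPS experiments the study lowered the serum in the medium just before drug treatment. Vehicle made up 0.2% of the medium, and ethanol (EtOH) was the vehicle of CBD. LPS was supplied in water, and the study gives DMSO, EtOH or water as the vehicle of its treated cells. The sources used here do not say whether the cells given LPS alone also received EtOH, and if they did not, CBD and its ethanol cannot be told apart within this comparison. Cells given EtOH alone for 24 h, cells given LPS with 30 µM dimethyl fumarate (DMF, in DMSO) for 24 h, and the LPS and LPS with CBD groups at 4 h served for reference, with 3 libraries each. The EtOH libraries were numbered 4 to 6 and the LPS libraries 1 to 3. In each comparison of LPS with EtOH, LPS and the set of replicates therefore cannot be told apart. Between the EtOH and DMSO vehicle groups at 24 h, the log2 difference of the group means had a median of 0.0 over the genes tested here and lay between -0.22 and 0.29 for the central 90% of genes.

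The LPS libraries held 15081796 to 21882585 counted reads and the LPS with CBD libraries 15933300 to 19253170. Mitochondrial genes took 1.44 to 2.32% of the reads in LPS and less in every LPS with CBD library, down to 1.25%. The microglial label was checked against 12 markers of microglia and macrophages, each of which averaged at least 10 normalized counts. Their summed normalized count ran from 36531 to 48761 in LPS and from 28823 to 40903 in LPS with CBD. P2ry12 and Tmem119, which mark microglia of the healthy brain, were low, at 42.8 to 57.5 and 45.4 to 133 normalized counts. Snap25 and Syt1 of neurons, Aqp4 of astrocytes, Mog and Olig2 of oligodendrocytes, Cldn5 of endothelium and Col3a1 of fibroblasts were not listed in any of the 6 libraries and were taken as 0 reads. The 6 oligodendrocyte markers summed to 1172 to 1496 in LPS and 771 to 948 in LPS with CBD, almost all of it Mbp, and the 5 endothelial markers to 145 to 191 and 77.6 to 101, most of it Pecam1. The 7 neuron markers summed to 261 to 378 in LPS and 266 to 340 in LPS with CBD, most of it Map2. The 7 neutrophil markers summed to 130 to 255 and 119 to 133, most of it S100a8. Astrocyte, fibroblast and lymphocyte markers summed to at most 24.3 in any library. The part of these in the results was not tested. In RNA from bulk cultures, fewer cells in a state and less RNA per cell cannot be told apart.

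Microglia are the resident macrophages of the brain. LPS is bound by CD14 and Toll-like receptor 4, which signals through the adaptors TIRAP and MyD88 to NF-kB and the cytokine genes, and through the adaptors TRAM and TRIF to the interferon genes. CBD is a lipophilic phytocannabinoid studied for anti-inflammatory and antioxidant properties, and the study asked how it and the fumarates change the response of microglia to LPS.

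About as many genes were called as were not. At 24 h, 5687 of the 11671 genes tested differed between LPS with CBD and LPS (48.7%), 2792 higher (23.9%) and 2895 lower (24.8%) with CBD (limma, Benjamini-Hochberg adjusted p below 0.05). Counts of list members called in this comparison are to be read beside these shares. Groups of genes moved together: cell division, sterol and fatty acid synthesis and glycolysis fell, while lysosomal genes, metallothioneins, the ATF4 stress genes, several chemokines and interferon-stimulated genes rose. Most changes were modest, with a median absolute log2 fold change of 0.57 among the called genes. Beyond an absolute log2 fold change of 1 lay 1202 genes (10.3%), 653 higher and 549 lower, and beyond 2 lay 134 higher and 49 lower. The median over all genes tested was -0.0019. In 6854 genes (58.7%) the 3 libraries of a group all lay beyond the 3 of the other. Among the 5687 called genes this held for 5565 (97.9%). For a called gene named below, groups that lie apart therefore add little to the call. Blocking by replicate number gave 6616 calls, and 4313 were made without LPS replicate 3, the lowest count among the alternatives.

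**Figure D1:**
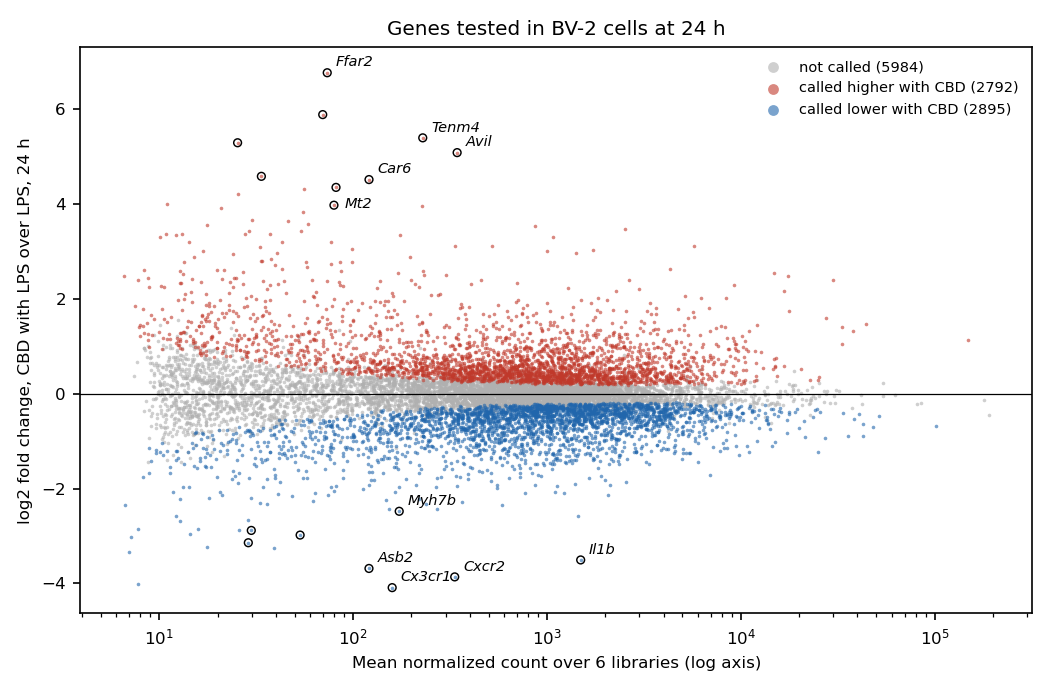
Log2 fold change of LPS with CBD over LPS at 24 h (vertical axis) against the mean normalized count over the 6 libraries (horizontal, log axis), with 1 point for each of 11671 genes tested. The 2792 genes called higher are red, the 2895 called lower blue and the 5984 not called grey, and open circles mark the largest changes, such as Ffar2, Avil and Il1b, among called genes whose higher group averaged 50 or more and whose groups were apart, except predicted and immunoglobulin genes.

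The 10 largest rises and 10 largest falls were taken among called genes whose higher group averaged 50 or more normalized counts and whose groups did not overlap, so groups are apart in each of them by that choice. The rises were in genes of low level in LPS alone. Tenm4, a teneurin of the cell surface (ENSMUSG00000048078, chromosome 7, 95820453 to 96560300), had normalized counts of 8.10, 14.4 and 6.47 in LPS and 378, 317 and 648 in LPS with CBD (log2 fold change 5.40, SE 0.324, limma adjusted p 4.89e-06). Avil, which encodes the actin-binding protein advillin (ENSMUSG00000025432, chromosome 10, 126836578 to 126856863), had 23.1, 15.5 and 15.4 in LPS and 593, 437 and 982 in LPS with CBD (log2 fold change 5.09, SE 0.283, limma adjusted p 3.51e-06). In both genes the third CBD library was the highest. Car6, a secreted carbonic anhydrase, had 6.94, 5.53 and 14.6 in LPS and 204, 128 and 366 in LPS with CBD (log2 fold change 4.52, SE 0.416, limma adjusted p 3.79e-05). Ffar2, a receptor for short-chain fatty acids, had 1 read over the 3 LPS libraries and 462 over the 3 with CBD, 453 times as many (95% counting interval 80.9 to 17926). Acox2, a peroxisomal acyl-CoA oxidase, had 1 and 158 reads, 155 times as many (27.4 to 6156). These intervals cover counting error only. Gbp8 (5.89), Ticam2 (4.59), Mt2 (4.35), the predicted gene Gm867 (4.33) and the protease inhibitor Serpinb9b (3.98) completed the 10 rises on the log2 scale. Gbp8 and Serpinb9b belong to families with near-identical copies, so their reads are uncertain. Ffar2, Acox2, Gbp8, Ticam2 and Gm867 passed the filter through the CBD libraries alone, so they had to be higher with CBD. Tenm4, Car6, Mt2 and Serpinb9b each had 1 LPS library at 10 or more, so they also needed the CBD libraries to be tested.

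The 10 falls chosen in this way held 2 chemokine receptors and a cytokine. Cx3cr1, the fractalkine receptor of microglia, fell from 196, 382 and 321 normalized counts in LPS to 12.1, 34.0 and 9.80 with CBD. Cxcr2, the receptor for neutrophil-attracting CXC chemokines, fell from 602, 691 and 582 to 42.8, 62.1 and 27.6. Their log2 fold changes were -4.09 and -3.86. Asb2, a substrate-recognition subunit of a ubiquitin ligase (ENSMUSG00000021200, chromosome 12, 103287401 to 103322260), had 239.6, 183 and 246 in LPS and 27.4, 21.4 and 7.13 in LPS with CBD (log2 fold change -3.68, SE 0.402, limma adjusted p 9.56e-05). Among the falls were also the vitamin D receptor gene Vdr (-3.14), the membrane skeleton gene Add2 (-2.98), the calcium pump gene Atp2b4 (-2.88) and the myosin gene Myh7b (-2.48). The others were Il1b and the immunoglobulin genes Ighv1-63 (-3.25) and Ighm (-2.58). Atp2b4 passed the filter through the LPS libraries alone, so it had to be lower with CBD. Cx3cr1, Asb2, Ighv1-63, Vdr and Add2 had some CBD libraries under 10 and also needed the LPS libraries to be tested. Called genes below the limit of 50, some with larger falls, were not ranked. For the 20 genes together, the log2 difference between the EtOH and DMSO vehicle groups ran from -0.70 to 0.80.

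CBD split the inflammatory cytokines. Of 17 tested, 6 rose and 6 fell (23.9% and 24.8% of all genes did), with a median log2 fold change of -0.12 against -0.0019 over all genes tested. Il1b encodes interleukin 1 beta, a fever-inducing cytokine that is made as a precursor (ENSMUSG00000027398, chromosome 2, 129206490 to 129213059). Its normalized counts were 2202, 3387 and 2572 in LPS and 191, 462 and 147 in LPS with CBD (log2 fold change -3.50, SE 0.351, limma adjusted p 6.04e-05). In EtOH alone the values, scaled over the 18 libraries at 24 h, were 27.0, 59.1 and 29.3, below every library of LPS with CBD. Il27, a cytokine subunit that acts on T cells, fell as well (-2.10, limma adjusted p 0.000981). Tnf, the gene of tumour necrosis factor, had 5379, 5094 and 5343 in LPS and 4284, 4661 and 3138 in LPS with CBD, a smaller difference (log2 fold change -0.41, SE 0.131, limma adjusted p 0.0278). This call was lost without LPS replicate 1 (adjusted p 0.0708) or LPS replicate 3 (0.0829).

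Il6 moved the other way. It encodes interleukin 6 and had 74.1, 76.2 and 56.6 in LPS and 210.5, 209.6 and 279 in LPS with CBD (log2 fold change 1.74, SE 0.175, limma adjusted p 6.22e-05), with no overlap. Csf1, the growth factor that sustains macrophages, rose from 853, 866 and 758 to 2532, 2723 and 3205 (log2 fold change 1.77, SE 0.102, limma adjusted p 4.10e-06), and LPS itself had left it close to EtOH (log2 fold change -0.20 for LPS over EtOH, limma adjusted p 0.181). The count of cytokines that fell was 3 without LPS replicate 3.

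Chemokine ligands rose while several receptors fell. Of 22 chemokines and receptors tested, 13 rose and 4 fell, beside 23.9% and 24.8% of all genes. Their median log2 fold change was 0.81. Ccl2, which draws monocytes through CCR2 (ENSMUSG00000035385, chromosome 11, 81926397 to 81928279), had normalized counts of 3355, 2325 and 3808 in LPS and 17244, 15679 and 12746 in LPS with CBD (log2 fold change 2.29, SE 0.175, limma adjusted p 1.60e-05). Its neighbour Ccl7, a ligand of the same receptor, had 587, 243 and 478 in LPS and 5740.1, 3869 and 4286 in LPS with CBD (log2 fold change 3.48, SE 0.280, limma adjusted p 2.02e-05). In both genes every CBD library was above every LPS library, and LPS libraries were above EtOH, where Ccl2 had 922, 612 and 653 and Ccl7 66.8, 12.1 and 47.9. Cxcl10, a T-cell attractant induced by interferon, had 209.5, 429 and 243 in LPS and 720.4, 1605 and 555 in LPS with CBD (log2 fold change 1.62, SE 0.370, limma adjusted p 0.00563). The second library of each group was the highest for this gene. The members that fell were the receptors Cx3cr1, Cxcr2 and Cxcr3 and the ligand Ccl22.

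**Figure D2:**
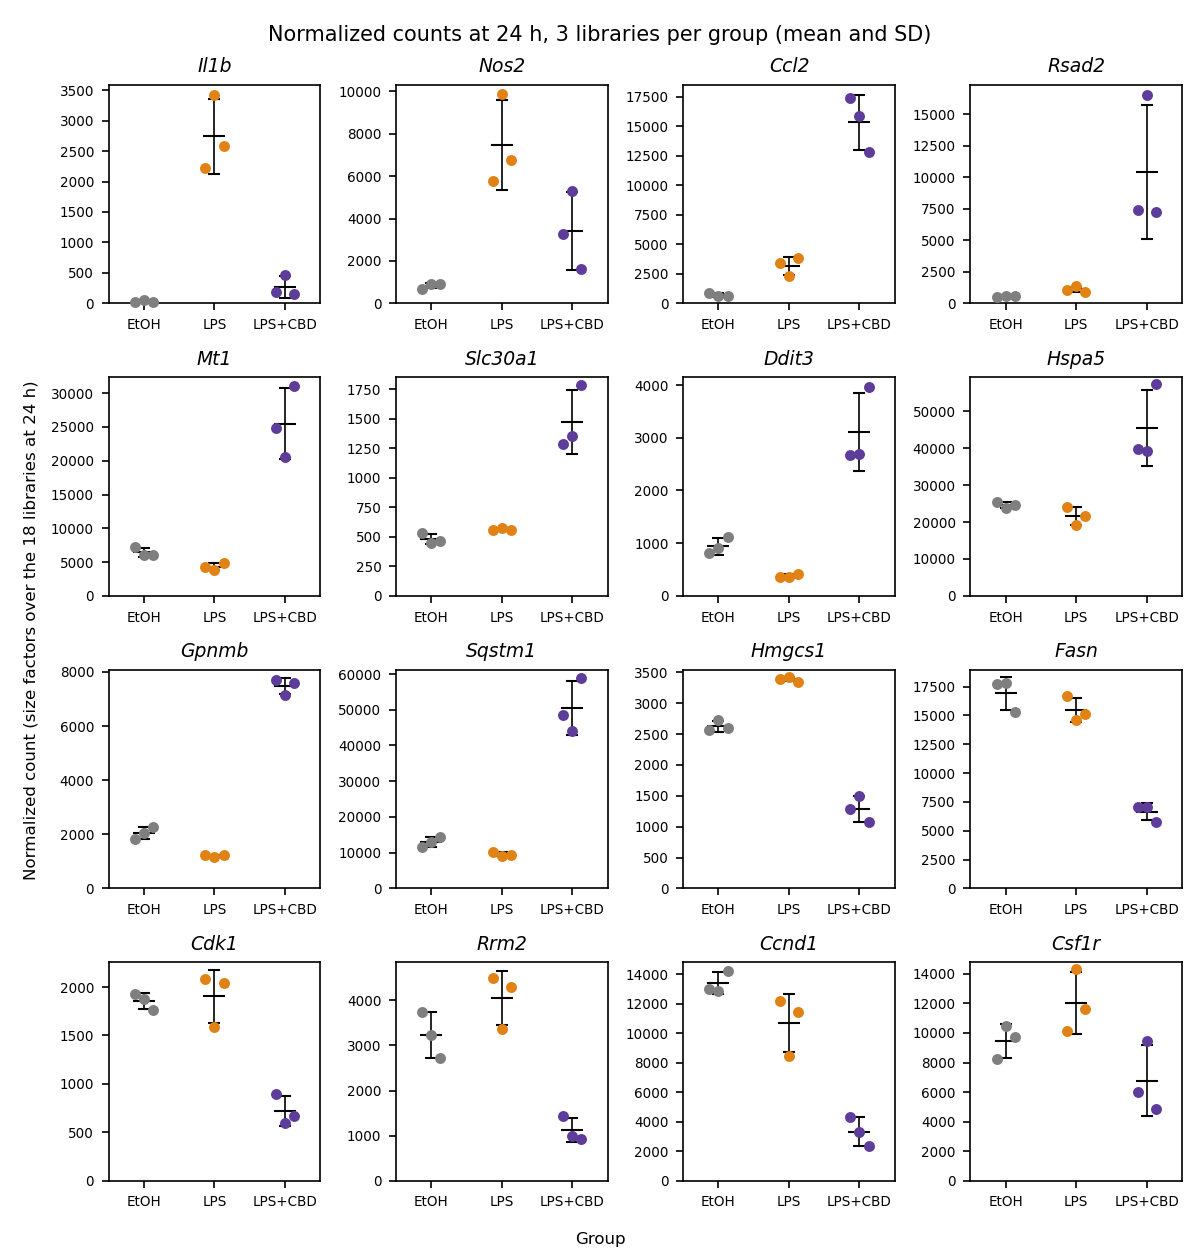
Normalized counts (vertical axes, scaled over the 18 libraries at 24 h) of 16 genes in EtOH, LPS and LPS with CBD at 24 h. Points are the 3 libraries of a group, horizontal bars the mean and whiskers the SD, and the LPS and LPS with CBD points of each gene shown do not overlap, with Il1b, Nos2, Hmgcs1, Fasn, Cdk1, Rrm2, Ccnd1 and Csf1r lower with CBD and the others higher.

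Interferon-stimulated genes, whose products restrict viruses, rose above the level LPS had set. Of 31 in the list, 29 were tested, of which 21 rose and 0 fell with CBD, beside 23.9% and 24.8% of all genes. Their median log2 fold change was 0.83, and edgeR and DESeq2 also called none of them lower. The count was 14 without LPS replicate 3 and 26 with the replicate block. Against EtOH, LPS alone had raised all 29, where 1268 of 11775 genes were higher (10.8%) and 1144 lower (9.72%). The LPS libraries enter both comparisons, so the values are given side by side. Rsad2, which encodes the antiviral enzyme viperin (ENSMUSG00000020641, chromosome 12, 26492745 to 26506451), had normalized counts of 502, 552 and 577 in EtOH, and 1081, 1335 and 932 in LPS and 7376, 16386 and 7269.7 in LPS with CBD (log2 fold change 3.12, SE 0.277, limma adjusted p 3.16e-05). Ifit1, a binder of foreign RNA, had 729, 923 and 649.8 in LPS and 2442, 5453 and 1998 in LPS with CBD (1.97, limma adjusted p 0.000721). Isg15, a ubiquitin-like modifier, had 408, 438 and 372 in LPS and 1331, 2359 and 1122 in LPS with CBD (1.91, limma adjusted p 0.000155). For each of these the groups were apart, and the second CBD library held the highest value. Mx1, an antiviral GTPase, rose too (1.58, limma adjusted p 0.0139), a call lost without LPS replicate 3 (adjusted p 0.0548).

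The promoter of Rsad2 is shown because it carries the interferon-stimulated response element, the site of the factor ISGF3. In the RefSeq window of 250 bases before to 50 bases after the start, on the minus strand at chr12:26506402-26506701 of GRCm39, the capitals mark the core of that element, a pair of GAAA repeats set 2 bases apart, here read on the opposite strand.
Rsad2: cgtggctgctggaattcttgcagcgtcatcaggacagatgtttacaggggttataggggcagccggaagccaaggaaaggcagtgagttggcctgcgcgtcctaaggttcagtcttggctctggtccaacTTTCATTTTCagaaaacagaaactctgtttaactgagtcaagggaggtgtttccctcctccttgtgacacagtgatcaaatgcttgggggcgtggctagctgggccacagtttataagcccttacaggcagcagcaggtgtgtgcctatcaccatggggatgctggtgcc
Of 22 list members with a window, 12 held this core on either strand (54.5%), as did 3.99% of 27025 genes. A match of letters is a description and not a bound site.

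The guanylate-binding proteins and immunity-related GTPases, which act at the membranes of intracellular pathogens, lay in the same direction. Of 16 in the list, 13 were tested, with 8 higher and 0 lower and a median log2 fold change of 1.04. With the replicate block, 13 were higher. Irgm1 had 794, 942 and 789.8 in LPS and 1635, 2317 and 1478 in LPS with CBD (log2 fold change 1.08, SE 0.154, limma adjusted p 0.000426), Gbp10 had 11.6, 22.1 and 11.3 in LPS and 62.5, 69.9 and 47.2 in LPS with CBD (1.97, limma adjusted p 0.000667) and Gbp8 had 3.47, 0 and 1.62 in LPS and 92.1, 161 and 160.3 in LPS with CBD (5.89, limma adjusted p 3.03e-05). Igtp was called (0.79, limma adjusted p 0.0141) but not without LPS replicate 3 (adjusted p 0.0529). Gbp2 was not called (0.65, limma adjusted p 0.125) except with the block (0.0134) or without CBD replicate 3 (0.0211). The Gbp genes are near-copies of each other on chromosomes 3 and 5, so reads may be split between them. Gbp8 passed the filter through the CBD libraries alone, so it had to be higher with CBD. Class I antigen presentation, which LPS had also raised (14 of 16 tested genes against EtOH), was mostly uncalled, with a median of 0.16. There, 2 of 16 were higher and 0 lower, beside 23.9% and 24.8% of all genes. Those were Nlrc5, its transcriptional activator (0.58, limma adjusted p 0.00318), and the chaperone gene Calr (0.37, limma adjusted p 0.0111), while B2m (0.19), Tap1 (0.29) and Psmb8 (-0.09) were not called. The count was 4 higher with DESeq2 or the block, and 4 higher without LPS replicate 2 or CBD replicate 3, while 4 were lower without CBD replicate 2.

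Of 20 genes of Toll-like receptor sensing, 7 rose and 3 fell, beside 23.9% higher and 24.8% lower over all genes tested, with a median log2 fold change of 0.23. Tlr4, the LPS receptor, had 706, 818 and 732 in LPS and 1064, 1064 and 1137 in LPS with CBD (log2 fold change 0.53, SE 0.0861, limma adjusted p 0.000852) with no overlap. Cd14, its co-receptor, went the other way, at 16195, 18832 and 18178 in LPS and 12637, 15078 and 13510.5 in LPS with CBD (log2 fold change -0.37, SE 0.0994, limma adjusted p 0.0127), a call lost without LPS replicate 3 (adjusted p 0.057) or CBD replicate 1 (0.0557). Ticam2, which encodes the adaptor TRAM, had 0, 6.63 and 1.62 in LPS and 62.5, 57.2 and 73.9 in LPS with CBD (log2 fold change 4.59, SE 0.626, limma adjusted p 0.000332). Ticam2 passed the filter through the CBD libraries alone, so it had to be higher with CBD. Tirap, which bridges the receptor to MyD88, fell from 532, 672 and 566 to 378, 429 and 396 (log2 fold change -0.55, SE 0.111, limma adjusted p 0.00293). Myd88 itself was not called (-0.30, limma adjusted p 0.0561), but was lower with the block (0.0119), with DESeq2 (0.0496), without LPS replicate 1 (0.0233) and without CBD replicate 2 (0.0155). Tlr3, a sensor of double-stranded RNA, rose (1.34, limma adjusted p 0.000673) and Tlr8 fell (-1.28, limma adjusted p 0.0125). The count of genes that fell in the sensing list was 5 without CBD replicate 2.

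Of 19 NF-kB subunits, inhibitors and feedback genes, 4 rose and 4 fell, with a median of 0.04. These shares are near or under the 23.9% and 24.8% of all genes, and are not a result about the list. The inhibitor gene Nfkbib had 1114, 1059.7 and 1129.7 in LPS and 1728, 1943 and 2354 in LPS with CBD (log2 fold change 0.85, SE 0.110, limma adjusted p 0.000234), whereas the inhibitors Nfkbid and Nfkbie fell by 0.88 and 0.54, the latter lost without CBD replicate 1 (adjusted p 0.055) or 3 (0.0522). Nfkb1 (-0.18, limma adjusted p 0.109), Nfkbia (-0.48, limma adjusted p 0.068) and Tnfaip3 (0.07, limma adjusted p 0.699) were not called, although Nfkb1 was called lower with the block (adjusted p 0.0286) or without CBD replicate 2 (0.0487), and Nfkbia with the block (0.000499), with DESeq2 (0.0212), without LPS replicate 1 (0.0172) or without CBD replicate 2 (0.011). The block gave 7 members lower. Without LPS replicate 3, 2 members rose, and the count that fell ranged from 2 without CBD replicate 1 or 3 to 7 without CBD replicate 2. Nfkbiz, an atypical inhibitor, rose by 0.35 with overlapping libraries, a call lost without LPS replicate 1 or 3 or CBD replicate 2 or 3 (adjusted p 0.0733 to 0.123).

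Nos2, which encodes the inducible nitric oxide synthase (ENSMUSG00000020826, chromosome 11, 78811613 to 78851080), fell, with every CBD library still above vehicle. It had normalized counts of 694, 904 and 902 in EtOH and 5742, 9755 and 6733 in LPS and 3254, 5263 and 1621 in LPS with CBD (log2 fold change -1.25, SE 0.357, limma adjusted p 0.0164). The fall was not called by DESeq2 (adjusted p 0.0532). Ptgs2, the inducible cyclooxygenase, also fell, from 18365, 33582 and 23645 to 14296, 17321 and 12972 (-0.73, limma adjusted p 0.0132). Ass1 and Asl, which remake arginine from citrulline, rose by 0.47 and 0.28, the latter lost without CBD replicate 1 (adjusted p 0.0546), when 1 gene of the list was higher, or CBD replicate 2 (0.0521). In all, 3 of the 9 genes tested rose and 2 fell, shares near those of all genes, with a median of 0.13. Arg1, which breaks arginine down, was under the limit for testing, with 2.67 to 9.95 normalized counts over the 6 libraries.

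Metal-responsive genes separated the groups. Of 8 zinc-response genes, 5 rose and 1 fell, beside 23.9% and 24.8% of all genes. Their median log2 fold change was 0.39. Mt1, a metallothionein that binds zinc and copper (ENSMUSG00000031765, chromosome 8, 94905710 to 94906955), had normalized counts of 4291, 3821 and 4808 in LPS and 24640.0, 20390.1 and 30957 in LPS with CBD (log2 fold change 2.54, SE 0.147, limma adjusted p 4.10e-06). Mt2 beside it had 4.63, 11.1 and 4.86 in LPS and 95.4, 174 and 200.4 in LPS with CBD (log2 fold change 4.35, SE 0.373, limma adjusted p 2.74e-05). Slc30a1, the exporter that moves zinc out of the cell, had 553, 571 and 559 in LPS and 1278, 1338 and 1782 in LPS with CBD (log2 fold change 1.37, SE 0.122, limma adjusted p 3.16e-05). The zinc importer Slc39a10 went in the opposite direction, with 1140.0, 1376 and 1224 in LPS and 244, 284 and 350.1 in LPS with CBD (log2 fold change -2.10, SE 0.135, limma adjusted p 6.22e-06). In none of these 4 genes did the groups overlap, as in 97.9% of all called genes. Mt2 had 1 LPS library at 10 or more, so it needed the CBD libraries to be tested. LPS over EtOH had lowered Mt1 (log2 fold change -0.57, limma adjusted p 0.00177) and gave 0.23 in Slc30a1 (0.113).

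The promoters of the 3 genes that rose most are shown because each holds the core of the metal response element, the site of the zinc-sensing factor MTF1. Capitals mark TGCGCNC or TGCACNC on either strand. The windows are on the plus strand of GRCm39, Mt1 at chr8:94905467-94905766, Mt2 at chr8:94898996-94899295 and Slc30a1 at chr1:191638643-191638942.
Mt1: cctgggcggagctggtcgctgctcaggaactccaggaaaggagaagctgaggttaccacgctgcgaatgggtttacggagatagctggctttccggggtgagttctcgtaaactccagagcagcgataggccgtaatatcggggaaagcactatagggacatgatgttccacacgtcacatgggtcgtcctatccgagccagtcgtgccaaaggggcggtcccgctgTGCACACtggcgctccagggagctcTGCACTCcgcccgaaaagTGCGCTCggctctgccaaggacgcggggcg
Mt2: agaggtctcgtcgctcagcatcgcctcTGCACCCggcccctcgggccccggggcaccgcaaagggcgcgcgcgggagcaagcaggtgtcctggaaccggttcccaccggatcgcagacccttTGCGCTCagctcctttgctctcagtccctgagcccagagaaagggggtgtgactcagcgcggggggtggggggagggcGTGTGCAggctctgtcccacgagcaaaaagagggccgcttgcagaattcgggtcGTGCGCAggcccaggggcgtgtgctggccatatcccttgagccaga
Slc30a1: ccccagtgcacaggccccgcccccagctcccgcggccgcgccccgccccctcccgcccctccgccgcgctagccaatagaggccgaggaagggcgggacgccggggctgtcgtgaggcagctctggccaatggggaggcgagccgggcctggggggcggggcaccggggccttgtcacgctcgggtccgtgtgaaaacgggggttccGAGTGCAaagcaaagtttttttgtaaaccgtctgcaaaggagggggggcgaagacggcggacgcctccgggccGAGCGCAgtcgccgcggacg
Mt1 held 3 matches, Mt2 4 and Slc30a1 2. Of the 8 list members 4 held the motif (50%), and so did 28.2% of all genes with a window, so this short motif is common.

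Of 24 Nrf2 targets tested, the antioxidant genes that answer electrophiles, 12 rose and 2 fell, beside 23.9% and 24.8% of all genes. Their median log2 fold change was 0.28. Hmox1, which encodes the heme-degrading enzyme heme oxygenase 1, had 5345, 7592 and 6672 in LPS and 19033, 17328 and 16446 in LPS with CBD (log2 fold change 1.44, SE 0.126, limma adjusted p 2.95e-05). Srxn1, a reductase of peroxiredoxins, had 829.8, 882 and 857 in LPS and 2382, 2038 and 2698 in LPS with CBD (log2 fold change 1.46, SE 0.103, limma adjusted p 1.06e-05). Slc7a11, the cystine importer, had 1884, 3063 and 2272 in LPS and 5193, 5806 and 6967 in LPS with CBD (1.33, limma adjusted p 0.000208), Gclm of glutathione synthesis 1073, 1175 and 1147 in LPS and 1899, 1807 and 1996 in LPS with CBD (0.75, limma adjusted p 7.15e-05) and the glutathione transferase gene Gstm1 430.5, 686 and 626 in LPS and 1523, 1570.0 and 1581 in LPS with CBD (1.45, limma adjusted p 7.45e-05). LPS and CBD libraries were apart in these 5 genes. The members that fell were Txn1, which encodes the disulfide reductant thioredoxin (-0.31), and Tkt, the transketolase of the pentose phosphate pathway (-0.39), the latter lost without LPS replicate 3 (adjusted p 0.0527). Under the block 4 members were lower.

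The stress genes driven by ATF4, the factor of the integrated stress response, rose too. Of 23 in the list, 21 were tested, with 14 higher and 3 lower, beside 23.9% and 24.8% of all genes. Their median was 0.75. Ddit3, which encodes the factor CHOP (ENSMUSG00000025408, chromosome 10, 127126643 to 127132157), had 805, 905 and 1109.8 in EtOH and 348, 360.2 and 411 in LPS and 2648, 2670.3 and 3961 in LPS with CBD (log2 fold change 3.02, SE 0.150, limma adjusted p 2.78e-06). LPS had lowered it (log2 fold change -1.31 against EtOH, limma adjusted p 2.60e-05), and LPS with CBD was above both. Ppp1r15a, which restores translation by dephosphorylating eIF2α, had 903, 1096 and 1129 in LPS and 4319, 3943 and 6475 in LPS with CBD (log2 fold change 2.21, SE 0.170, limma adjusted p 1.65e-05). Trib3, a pseudokinase, had 881, 793 and 823 in LPS and 3894, 3189 and 4129 in LPS with CBD (log2 fold change 2.16, SE 0.103, limma adjusted p 2.74e-06). Chac1, which degrades glutathione, rose by 0.92 and Asns, which makes asparagine, by 0.45. Ddit4, an inhibitor of mTORC1, the serine synthesis gene Psat1 and the secreted stanniocalcin gene Stc2 fell by 0.66, 0.27 and 0.31. The fall of Ddit4 was lost without LPS replicate 2 (adjusted p 0.0661) and that of Stc2 without any library but LPS replicate 1 or CBD replicate 2 (0.0569 to 0.121), and 1 member was lower without LPS replicate 2, LPS replicate 3 or CBD replicate 3.

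Endoplasmic reticulum chaperones rose with them. Of 21 tested, 14 were higher and 1 lower, with a median of 0.32. Hspa5, the chaperone BiP, had 23798, 19054 and 21674 in LPS and 39532, 38708 and 57221 in LPS with CBD (log2 fold change 1.05, SE 0.159, limma adjusted p 0.000574), and Dnajb9, its co-chaperone, 334, 284 and 374 in LPS and 1022, 964 and 1530.4 in LPS with CBD (log2 fold change 1.80, SE 0.173, limma adjusted p 4.89e-05). Ern1, which encodes the sensor IRE1α, rose from 2350.5, 2444 and 2625 to 5013, 5259 and 6390.5 (1.16, limma adjusted p 2.79e-05). Xbp1, whose messenger is the target of that sensor, was not called (0.13, limma adjusted p 0.232), and counts per gene do not separate its spliced form. The member that fell was Edem1 (-0.33), a call lost without any library but CBD replicate 2 (adjusted p 0.0604 to 0.105). Cytosolic heat shock genes did not share the rise. Of 10 tested, 0 were higher and 1 was lower, Hsp90ab1 (-0.47, limma adjusted p 0.00441), and neither edgeR nor DESeq2 called any higher. Without CBD replicate 2, or with the block, 2 were lower. Hspa1a had 0 to 1 read in each library, and Hsph1 (-0.02) and Dnajb1 (-0.15) were not called.

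Lysosomal and autophagy genes rose broadly. Of 38 in the list, 34 were tested, with 28 higher and 1 lower and a median log2 fold change of 0.77. Gpnmb, a glycoprotein of lysosomes in lipid-loaded macrophages (ENSMUSG00000029816, chromosome 6, 49013480 to 49047863), had normalized counts of 1209, 1138 and 1215 in LPS and 7635, 7069 and 7559 in LPS with CBD (log2 fold change 2.64, SE 0.0720, limma adjusted p 1.53e-07). Sqstm1, the autophagy receptor p62 (ENSMUSG00000015837, chromosome 11, 50090193 to 50101654), had 10034, 8978 and 9432 in LPS and 48166, 43626 and 58639 in LPS with CBD (log2 fold change 2.39, SE 0.118, limma adjusted p 2.78e-06). Ctsd, the protease cathepsin D (ENSMUSG00000007891, chromosome 7, 141929648 to 141941775), had 13776, 13319 and 13393 in LPS and 40123, 37023 and 46814 in LPS with CBD (log2 fold change 1.61, SE 0.104, limma adjusted p 6.43e-06). The spread within each group was small beside these differences, and the groups were well apart. Further members that rose were Grn, Gla, Psap, Ctsb, Lipa, Mcoln1, the proton pump subunit genes Atp6v1a and Atp6v1h, and the nutrient-sensing genes Flcn and Fnip2, named here after their values were seen. Tfeb, which encodes a master factor of lysosomal genes, was the member that fell (308, 398 and 308 in LPS and 210.5, 244 and 200.4 in LPS with CBD, log2 fold change -0.62, SE 0.137, limma adjusted p 0.00466). LPS against EtOH had lowered 11 of the 34 and raised 3.

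The promoter of Ctsd is shown because it holds the CLEAR core CACGTG, the palindromic E-box that TFEB and TFE3 bind. Both matches are in capitals. The window lies on the minus strand of GRCm39 at chr7:141941515-141941814.
Ctsd: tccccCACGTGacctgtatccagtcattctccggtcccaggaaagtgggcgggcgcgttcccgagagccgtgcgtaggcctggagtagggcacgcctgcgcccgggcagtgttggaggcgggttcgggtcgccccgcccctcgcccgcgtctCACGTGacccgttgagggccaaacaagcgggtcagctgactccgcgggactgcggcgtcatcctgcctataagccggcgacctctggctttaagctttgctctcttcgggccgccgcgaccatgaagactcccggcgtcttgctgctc
Of 30 list members with a window, 10 held CACGTG (33.3%), against 8.09% of all genes. The letters also fit other E-box factors.

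Sterol synthesis fell almost throughout. Of 25 genes in the list, 24 were tested, with 21 lower and 0 higher and a median log2 fold change of -1.11. edgeR and DESeq2 called none higher either. Hmgcs1, the enzyme that makes HMG-CoA (ENSMUSG00000093930, chromosome 13, 120151915 to 120169796), had 3376, 3389 and 3341 in LPS and 1277, 1479 and 1072 in LPS with CBD (log2 fold change -1.41, SE 0.109, limma adjusted p 1.71e-05). Stard4, a carrier of cholesterol between membranes, had 2605, 2609 and 2393 in LPS and 846, 858 and 558 in LPS with CBD (log2 fold change -1.77, SE 0.150, limma adjusted p 2.62e-05). Pmvk, a kinase of the mevalonate pathway, had 1065, 1201 and 961 in LPS and 433, 423 and 263 in LPS with CBD (-1.56, limma adjusted p 0.000137), and Sqle, the squalene epoxidase, 5527, 5437 and 5848 in LPS and 4070.1, 3923 and 3166 in LPS with CBD (-0.60, limma adjusted p 0.00108). No CBD library reached an LPS library in these 4 genes. Hmgcs1 in EtOH was at 2561, 2727 and 2592, between the levels of the other groups, and LPS had raised 14 of the 24 members.

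The Hmgcs1 promoter is shown because its window holds the sterol regulatory element of SREBP2, TCACNCCAC, in capitals. It lies on the plus strand of GRCm39 at chr13:120151637-120151936.
Hmgcs1: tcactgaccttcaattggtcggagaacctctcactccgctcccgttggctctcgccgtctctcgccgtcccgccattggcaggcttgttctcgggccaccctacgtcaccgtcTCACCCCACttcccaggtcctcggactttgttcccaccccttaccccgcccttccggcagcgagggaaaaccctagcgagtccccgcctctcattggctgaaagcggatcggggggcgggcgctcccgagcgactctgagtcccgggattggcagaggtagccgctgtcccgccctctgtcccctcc
Hmgcs1 was the 1 member of 17 with a window to hold these exact letters (5.88%), and 1.44% of all genes did.

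Fatty acid synthesis fell alongside, with 9 of 14 tested genes lower and 1 higher and a median of -0.67. Fasn, the fatty acid synthase, had 16527, 14495 and 15089.5 in LPS and 6999.9, 7012 and 5782 in LPS with CBD (log2 fold change -1.22, SE 0.0997, limma adjusted p 2.14e-05). Scd2, the desaturase that makes oleate, had 44113, 49407 and 46030.0 in LPS and 27279, 29642 and 19119 in LPS with CBD (-0.90, limma adjusted p 0.00132), Acaca, which makes malonyl-CoA, 2161, 2001 and 2040.1 in LPS and 1357, 1404 and 1236 in LPS with CBD (-0.63, limma adjusted p 0.000201), and Acss2, which activates acetate, 730.3, 1254 and 860.2 in LPS and 338, 624 and 266 in LPS with CBD (-1.27, limma adjusted p 0.00578). The groups were apart in each. Acsl4, which loads polyunsaturated fatty acids onto CoA, was the gene that rose, by 0.22 (limma adjusted p 0.0486), a call lost under 7 of the alternatives, among them the omission of any library but LPS replicate 2 (adjusted p 0.0651 to 0.177).

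The genes of cholesterol efflux and of the oxysterol receptor LXR did not move as a unit. Of 14 tested, 6 rose and 5 fell, beside 23.9% and 24.8% of all genes, with a median of 0.25. Abca1, the main exporter of cholesterol to apolipoproteins (ENSMUSG00000015243, chromosome 4, 53030787 to 53159895), fell from 1530.0, 2089.6 and 1702 to 367, 629 and 311 (log2 fold change -2.08, SE 0.228, limma adjusted p 9.76e-05), and the LXR targets Mylip (-0.75, limma adjusted p 0.00349) and Lpl (-1.29, limma adjusted p 0.000798) fell too. Abcg1, another LXR target and cholesterol exporter, rose from 1332, 1420.0 and 1228 to 1683, 2285 and 1886 (0.55, limma adjusted p 0.0035). Npc1, which carries cholesterol out of lysosomes, had 1315, 1377 and 1256 in LPS and 3432, 3556 and 3537 in LPS with CBD (log2 fold change 1.42, SE 0.0713, limma adjusted p 2.86e-06), and Plin2, which coats lipid droplets, 2782, 2889 and 2719.9 in LPS and 8238, 7956 and 9769 in LPS with CBD (log2 fold change 1.62, SE 0.0905, limma adjusted p 3.51e-06). In all 6 genes the libraries of the groups were apart.

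**Figure D3:**
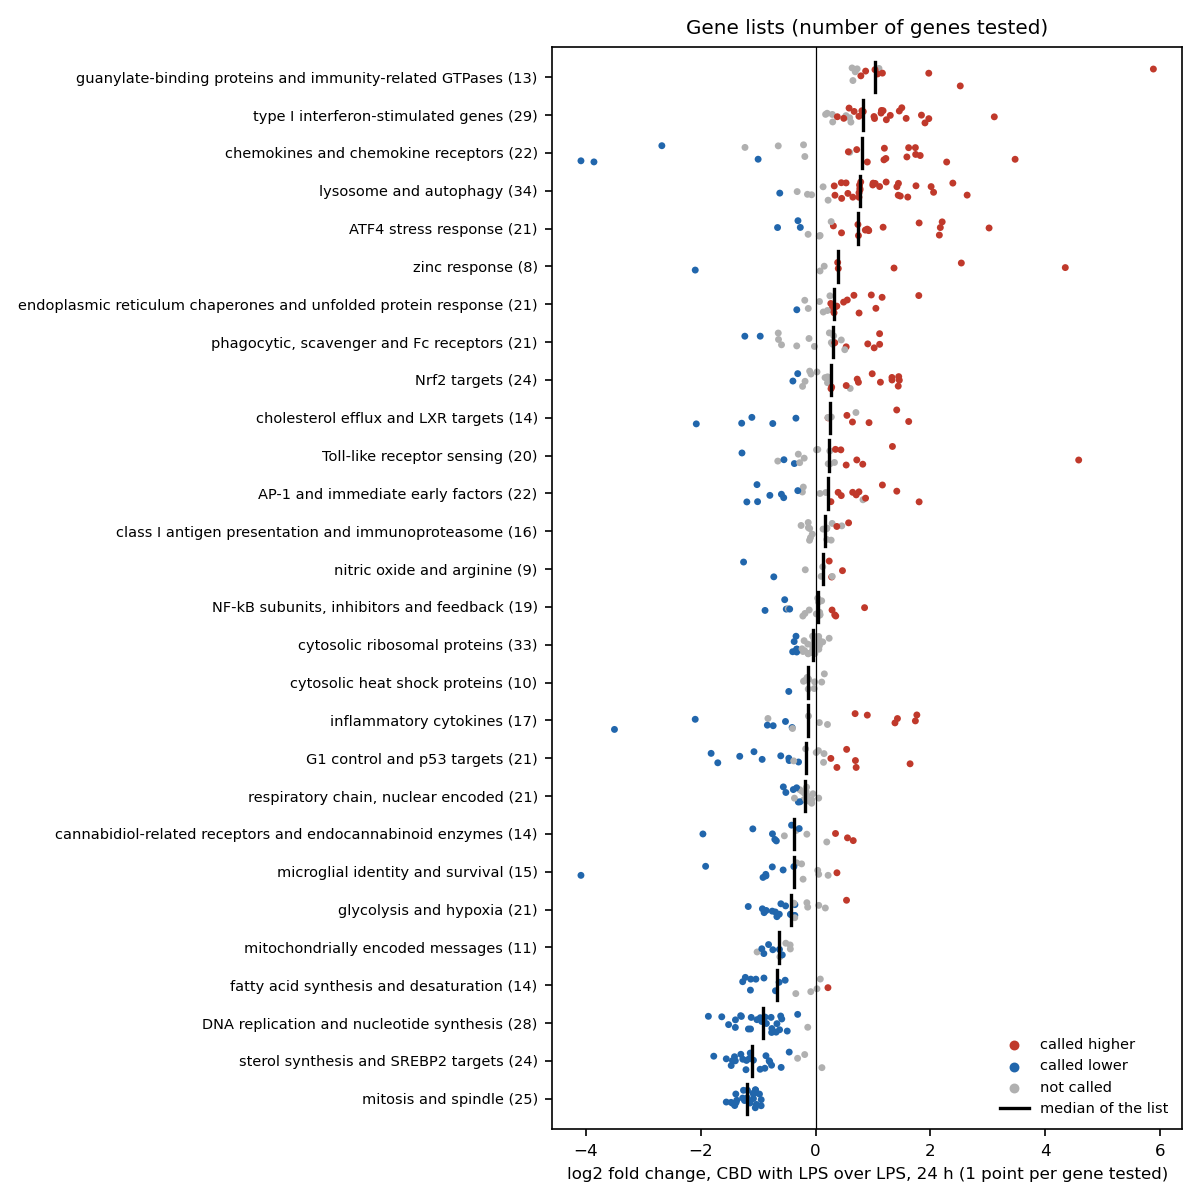
Log2 fold changes of LPS with CBD over LPS at 24 h (horizontal axis) for the members of 28 gene lists, with 1 point for each gene tested and a black bar at the list's median. Red points were called higher, blue lower and grey not called, and the lists run from the guanylate-binding proteins, with a median of 1.04, to mitosis, with -1.19.

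Genes of cell division fell together. All 25 genes of mitosis and the spindle were tested and called lower, with log2 fold changes from -1.56 to -0.95 and a median of -1.19. Cdk1, the kinase that drives entry into mitosis (ENSMUSG00000019942, chromosome 10, 69170976 to 69188768), had 2064, 1574 and 2039 in LPS and 892, 591 and 669.9 in LPS with CBD (log2 fold change -1.41, SE 0.157, limma adjusted p 0.000108). Plk1, a kinase of the spindle poles, had 1406, 1242 and 1612 in LPS and 688, 511 and 459.6 in LPS with CBD (log2 fold change -1.37, SE 0.151, limma adjusted p 0.000102). Ccnb1, the cyclin partner of Cdk1, had 2246, 1855 and 2208 in LPS and 1176, 868 and 948 in LPS with CBD (-1.08, limma adjusted p 0.000118), the centrosomal kinase Aurka 1873, 1327 and 1594 in LPS and 815, 689.9 and 597 in LPS with CBD (-1.19, limma adjusted p 0.000175), the chromosomal passenger kinase Aurkb 1708, 1479.6 and 1627 in LPS and 699.6, 538 and 510.4 in LPS with CBD (-1.47, limma adjusted p 2.39e-05) and the cytokinesis motor Kif20a 1425, 1000.1 and 1228 in LPS and 498, 385 and 357 in LPS with CBD (-1.56, limma adjusted p 5.69e-05). Each CBD library was under each LPS library. LPS itself had changed 1 of the 25 against EtOH.

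The Cdk1 promoter is shown because it holds the cell cycle genes homology region (CHR), TTTGAA, of the complex that silences mitotic genes outside division. Its 2 matches are in capitals, on the minus strand of GRCm39 at chr10:69188693-69188992.
Cdk1: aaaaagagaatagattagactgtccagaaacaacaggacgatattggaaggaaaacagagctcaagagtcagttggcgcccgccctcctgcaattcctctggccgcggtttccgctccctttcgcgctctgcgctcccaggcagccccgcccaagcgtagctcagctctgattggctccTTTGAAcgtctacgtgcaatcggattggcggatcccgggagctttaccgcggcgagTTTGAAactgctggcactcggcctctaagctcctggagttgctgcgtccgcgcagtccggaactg
Of 22 members with a window, 16 held TTTGAA (72.7%) and 18 held CCAAT (81.8%), against 20.2% and 41.1% of all genes.

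Of 28 genes of DNA replication and nucleotide synthesis, 27 fell and 0 rose, with a median of -0.91, and edgeR and DESeq2 called none higher. Rrm2, the subunit that limits deoxynucleotide supply, had 4458, 3334 and 4289.9 in LPS and 1417, 989.7 and 934 in LPS with CBD (log2 fold change -1.87, SE 0.162, limma adjusted p 2.90e-05). Cdc6, which loads the replicative helicase, had 724, 604 and 693 in LPS and 244, 214 and 192 in LPS with CBD (log2 fold change -1.63, SE 0.121, limma adjusted p 1.34e-05). Mcm2 of that helicase fell by 0.88 and the sliding clamp gene Pcna by 0.49. Of 22 replication genes with a window, 10 held the E2F motif TTNGCGC (45.5%), against 7.24% of all genes.

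Upstream of division, the D-type cyclin Ccnd1 had 12132, 8363 and 11412 in LPS and 4293, 3311 and 2355 in LPS with CBD (log2 fold change -1.70, SE 0.206, limma adjusted p 0.000171), and Cdkn2c, which encodes the inhibitor p18, 227, 178 and 193 in LPS and 69.1, 49.5 and 49.9 in LPS with CBD (log2 fold change -1.82, SE 0.179, limma adjusted p 5.52e-05). Of 21 genes of G1 control and the p53 response, 6 rose and 9 fell, beside 23.9% and 24.8% of all genes. Their median was -0.17. Mdm2, the ubiquitin ligase of p53, rose (0.70, limma adjusted p 0.000116), as did Gadd45a (1.65, limma adjusted p 0.000118) and the death receptor gene Eda2r (0.71, limma adjusted p 0.000393). Cdkn1a, the p53 target that encodes the inhibitor p21, fell, from 9690.4, 10675 and 10111 to 7351, 8678 and 6303 (-0.46, limma adjusted p 0.00855).

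Genes of glycolysis and the hypoxia response fell in 14 of 21 cases and rose in 1, with a median of -0.44. The enzymes Pfkl, with 7924, 7145 and 7527 in LPS and 4756, 4259.7 and 3065 in LPS with CBD (log2 fold change -0.93, SE 0.143, limma adjusted p 0.000656), and Ldha, which makes lactate, with 61729.9, 56572 and 59056 in LPS and 42893, 38222 and 29355 in LPS with CBD (log2 fold change -0.70, SE 0.143, limma adjusted p 0.00318), were among them. Pdk1, which encodes a kinase of pyruvate dehydrogenase, fell by 1.17 and the hexokinase gene Hk2 by 0.60. Pfkfb3, which makes the activator of phosphofructokinase, rose (0.54, limma adjusted p 0.00769). Slc2a1, the glucose transporter, was not called (-0.15, limma adjusted p 0.446). Without LPS replicate 3 the count that fell was 9.

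Messengers of the mitochondrial genome were lower too. Of 11 tested, 6 fell and 0 rose, with a median of -0.63, and this list moved with the share of mitochondrial reads given above. mt-Cytb of complex III had 24766, 42472 and 40749 in LPS and 18374, 15723 and 21176 in LPS with CBD (log2 fold change -0.94, SE 0.199, limma adjusted p 0.00385) and mt-Nd1 of complex I 21727, 31073 and 31072 in LPS and 15719, 11387 and 17987 in LPS with CBD (log2 fold change -0.90, SE 0.186, limma adjusted p 0.00336). LPS replicate 1 was the lowest LPS library in both. Without it, 10 of 11 were lower, and mt-Co1, which was not called (-0.44, limma adjusted p 0.0898), had an adjusted p of 0.016. edgeR (0.0427) and DESeq2 (0.00729) also called mt-Co1 lower. Nuclear genes of the respiratory chain were listed separately. Of 21 tested, 6 fell and 0 rose, with a median of -0.19, and 10 fell under the block and 11 without LPS replicate 2. The share in the main fit is near the 24.8% of all genes called lower. Atp5f1a of the ATP synthase fell by 0.56 and Uqcrfs1 of complex III by 0.52, while Ndufs1 (-0.21), Sdha (-0.11) and Cox4i1 (-0.15) were not called, although Ndufs1 was called lower with the block (adjusted p 0.0329) and without LPS replicate 2 (0.0246). Among 33 cytosolic ribosomal proteins, 7 fell, a share under that of all genes, and 0 rose, with a median of -0.05 and values from -0.40 (Rpl8) to 0.24 (Rplp0, not called). The call of Rpl8 was lost without LPS replicate 3 (adjusted p 0.0502), and Rplp0 was called higher in the fit over 18 libraries (0.0236). For these 3 lists edgeR and DESeq2 also called no gene higher.

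Genes that mark microglia mostly fell or stayed uncalled. Of 24 in the list, 15 were tested, with 8 lower and 1 higher, beside 24.8% and 23.9% of all genes. Their median was -0.38. Csf1r, the receptor for CSF1 that microglia need to survive (ENSMUSG00000024621, chromosome 18, 61233670 to 61265221), had 10058, 14152 and 11586 in LPS and 5988, 9372 and 4839.6 in LPS with CBD (log2 fold change -0.87, SE 0.215, limma adjusted p 0.00868), the reverse of its ligand gene Csf1. Mef2c, a factor that restrains microglial activation, had 3126, 3384 and 3485 in LPS and 838, 1066 and 766 in LPS with CBD (log2 fold change -1.92, SE 0.118, limma adjusted p 5.09e-06) with no overlap. Trem2, a lipid receptor of phagocytic microglia, was the gene that rose, from 1303, 1232 and 1191 to 1602, 1804 and 1439 (0.37, limma adjusted p 0.00962). P2ry12 was not called (-0.22, limma adjusted p 0.345).

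Among 21 phagocytic, scavenger and Fc receptors, 6 rose and 2 fell, beside 23.9% and 24.8% of all genes, with a median of 0.30, and the block gave 11 and 4. Cd68, a lysosomal glycoprotein of macrophages, had 4650.2, 6286 and 6574 in LPS and 11975, 13416 and 12197 in LPS with CBD (log2 fold change 1.12, SE 0.127, limma adjusted p 0.000122), Clec4e, a receptor for mycobacterial glycolipid, 4966, 8598 and 6627 in LPS and 11963, 16305 and 14818 in LPS with CBD (1.12, limma adjusted p 0.000992), and Fcgr1, the high-affinity IgG receptor, 716, 926 and 812 in LPS and 1447, 1949 and 1603 in LPS with CBD (1.02, limma adjusted p 0.000203). The scavenger receptor gene Scarb1 (3628, 4177 and 4337 in LPS and 1815, 2076 and 1343 in LPS with CBD, -1.23, limma adjusted p 0.000151) and the integrin Itgb2 (-0.96, limma adjusted p 0.0027) fell. Msr1, which LPS had raised (2.58 against EtOH), did not move with CBD beyond its spread, at 1736, 3047 and 2436 in LPS and 1868, 3548 and 1533 in LPS with CBD (-0.11, limma adjusted p 0.765). Cd36 was not called (0.32, limma adjusted p 0.0683) except with the block (0.0266) or without CBD replicate 2 (0.0332), and 10 members were higher without LPS replicate 2.

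The CBD effects on cell division, sterol and lysosomal genes were not those seen at 4 h. The CBD effect at 24 h differed from that at 4 h in 3816 of 11959 genes tested (31.9%), 1848 more positive and 1968 more negative at 24 h (limma interaction term over 12 libraries, Benjamini-Hochberg adjusted p below 0.05). By list, the difference was called in 25 of 25 mitosis genes, 24 of 28 replication genes, 21 of 24 sterol genes, 26 of 34 lysosome genes and 14 of 22 chemokines and receptors, but in 9 of 29 interferon-stimulated genes and 0 of 33 ribosomal protein genes. At 4 h the median log2 fold change with CBD was -0.05 for mitosis, 0.12 for sterol synthesis and -0.10 for lysosome, against -1.19, -1.11 and 0.77 at 24 h. Hmgcs1 was at 0.25 at 4 h, and its change between times was -1.67 (limma adjusted p 0.000247). Il1b was at 0.30, with a change of -3.81 (adjusted p 0.000585).

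**Figure D4:**
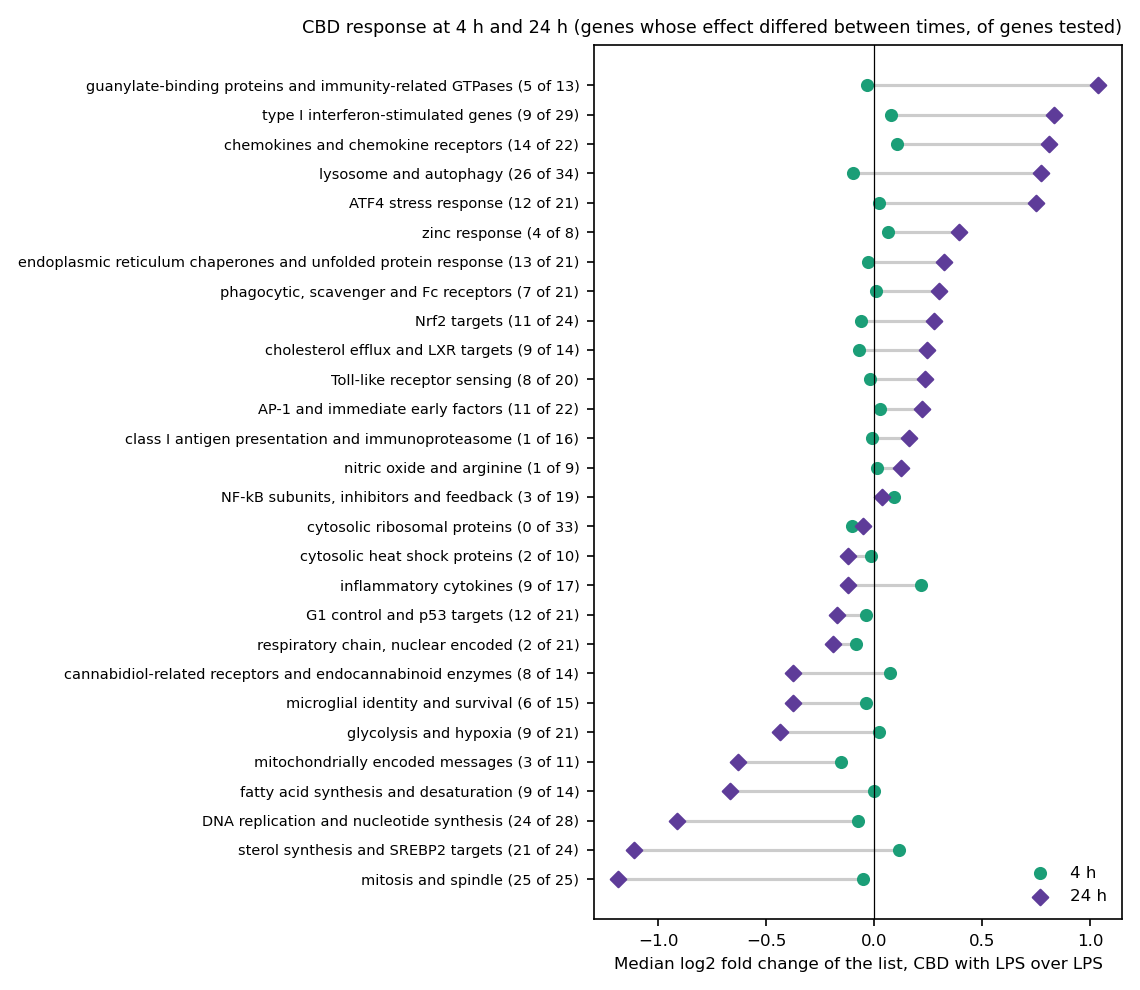
Median log2 fold change of LPS with CBD over LPS in 28 gene lists (horizontal axis) at 4 h (green circles) and at 24 h (purple diamonds), with a grey line joining the medians of a list. Numbers beside each list give the genes whose CBD effect differed between the times, of those tested, and the 4 h medians all lie between -0.15 and 0.22 while those at 24 h run from -1.19 to 1.04.

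Over the 8 zinc genes the median at 4 h was 0.06, while the 4 described above, which had the largest changes of the list at 24 h, lay further from 0. Slc30a1 was at 1.24 on the log2 scale at that time (SE 0.129), and its effect did not pass the test of a difference between times (change of 0.12, limma adjusted p 0.656). Mt2 was at 1.81 (SE 0.391), Mt1 at 0.92 (0.154) and Slc39a10 at -0.96 (0.130) at 4 h. For these 3 the effect grew to 24 h, by 2.53 (limma adjusted p 0.00344), 1.62 (0.000119) and -1.15 (0.000407). At 4 h Ddit3 was at 0.08 (SE 0.146) and Gpnmb at -0.26 (0.136).

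CBD was also compared with DMF, another drug of the study, at the same LPS dose and time. CBD and DMF differ in class and in dose, 6 against 30 µM, and in vehicle, so the values are of those treatments as given. LPS with CBD differed from LPS with DMF in 4523 of 11740 genes tested (38.5%), 2269 higher (19.3%) and 2254 lower (19.2%) with CBD (limma). These libraries of LPS with CBD are the ones compared with LPS above. Lysosomal genes were higher with CBD in 28 cases and lower in 2, with a median of 0.85, and Gpnmb was higher by 2.23 (limma adjusted p 5.84e-06). The metallothionein genes Mt2 and Mt1 were higher by 3.32 and 2.16 and Ccl7 by 2.32. Il1b was lower with CBD by a log2 fold change of -4.45 (limma adjusted p 4.85e-05), Cxcr2 by -4.48 and Abca1 by -3.43.

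The drugs also differed within other lists. Of 25 mitosis genes, 10 were lower with CBD and 0 higher, with a median of -0.40. In sterol synthesis 12 of 24 were higher with CBD than with DMF and 2 lower, with a median of 0.34. Of the Nrf2 targets 6 were higher with CBD and 9 lower, with a median of -0.17. Gclm differed by 0.03 (limma adjusted p 0.86) and Srxn1 by 0.27 (0.211), neither past the test, whereas Hmox1 was higher with CBD by 1.27 (0.000255). Mitochondrially encoded messengers were lower with CBD in 10 of 11 cases, with a median of -0.93.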

How the data were processed

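BV-2 RNA was sequenced as poly(A)+ libraries from 3 independent experiments per group. Per the submitters' processing notes, reads were checked with FastQC 0.12.1, trimmed with cutadapt 4.4 and Trimmomatic 0.39, aligned to GRCm39 with HISAT2 2.2.1 and counted with HTSeq 2.0.3. The strand setting of counting is not given in the sources used here. The authors deposited counts divided by DESeq2 1.40.2 size factors, a signal called the normalized count here, with fold changes and p-values of their own comparisons, which were not used. Whole reads were recovered for 100.0% of 733458 values (tolerance 0.01 read) and served the edgeR 4.0.16 and DESeq2 1.42.0 alternatives.

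Genes with a normalized count of at least 10 in at least 3 of 6 libraries were tested on log2(value + 1) with limma 3.58.1 in R 4.3.3 (trended empirical Bayes), so fold changes of low genes are understated. A call is a Benjamini-Hochberg adjusted p below 0.05. The difference between times was an interaction term over 12 libraries, rescaled together from the recovered reads, as were the EtOH values over 18 libraries. Figures and summaries were made with Python 3.11.15. Promoters came from RefSeq (GRCm38.p6 table), and the windows printed were each placed by 1 exact match in GRCm39. Gene positions are those of a GRCm39 annotation.

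Named genes were members chosen for each list by their role. Each list also gave its 2 largest called rises and 2 largest called falls among members whose higher group averaged 50 or more. Members named in this way are the most changed of their lists and not typical ones. Some of them, such as Atf3, Daglb, Mgll and Dagla, are not described. Others in the text, such as Dusp1 and Gpr18, were named outside these rules. The 10 largest rises and 10 largest falls over all genes were added. They came from 5247 called candidates whose higher group averaged 50 or more and whose groups did not overlap. The members and lists were chosen with earlier results of these data known. Same-numbered libraries of LPS and LPS with CBD deviated together (r = 0.353, 0.521 and 0.126 for numbers 1, 2 and 3, each over 0.1, although number 3 reached 0.173 with another number), so the replicate number was treated as pairing them, and the unblocked fit stayed the main one. Replicates were independent experiments per the study's methods, and no pair of libraries agreed within sampling noise. On simulated counts for 11671 genes of the CBD comparison with 200 changed, 50% of changes of 0.5 on the log2 scale, 88.1% of 1 and 98.5% of 2 were called. In the data 5687 genes were called, and adjusted p-values depend on the share of changed genes. These rates are therefore not those of the data. Alternatives were the scaling, filter, pseudocount, edgeR, DESeq2, the replicate block, all 18 libraries and the omission of each library. Some members of the sterol list are not reported here by name, although the counts and medians of that list include them.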

Additional observations from a re-analysis of the deposited data

Results flagged for a closer look

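In the test of the difference itself, a limma interaction term over 12 libraries, the CBD effect on 3816 genes differed between 24 h and 4 h, and the 20 genes named for their changes at 24 h were all among them (adjusted p 3.38e-06 to 0.00344). The change of the log2 effect from 4 h to 24 h was 5.68 for Ffar2, 5.81 for Gbp8, 6.12 for Tenm4, 4.90 for Acox2, 4.99 for Avil, 5.57 for Ticam2, 3.56 for Car6, 2.53 for Mt2, 4.11 for Gm867 and 4.39 for Serpinb9b. For the genes that fell it was -3.95 for Cx3cr1, -4.22 for Cxcr2, -3.93 for Asb2, -3.81 for Il1b, -3.41 for Ighv1-63, -4.06 for Vdr, -3.0 for Add2, -2.98 for Atp2b4, -2.54 for Ighm and -2.41 for Myh7b. Fitted values of Ffar2 and Acox2, with 1 read over the LPS libraries at 24 h, depend on the pseudocount. The 20 genes were chosen by their 24 h effect, so their interaction is not independent of that choice, and groups of 3 libraries were not tested for outlying samples.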

How the results depend on the processing

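The number of genes called between LPS with CBD and LPS was 5687, and ran from 5297 (mean of at least 50) to 6616 (replicate block) under the alternatives that kept all libraries. Leaving out 1 library gave 4313 to 5418. Genes beyond an absolute log2 fold change of 1 numbered 1202, with 870 to 1447 under the alternatives and 960 to 1225 without 1 library. The difference between 24 h and 4 h was called in 3816 genes, with 3475 to 4755 and 3015 to 3993. LPS with CBD against LPS with DMF gave 4523, with 4185 to 5579 and 3254 to 4363 without 1 library. LPS against EtOH gave 2412 calls, with 2224 to 2927 and 1416 to 2504 without 1 library, with 1416 without LPS replicate 3 and 1581 without EtOH replicate 5. Of the 162 genes followed through the alternatives, no called gene turned its direction. Other genes in the text, such as Dusp1 and Gpr18, were not followed. Class I antigen presentation, with 2 higher and 0 lower, had 4 lower without CBD replicate 2, and 1 ribosomal gene was higher in the fit over 18 libraries. The replicate block, which pairs libraries by number, changed list counts by over 1.5 times beyond those given above only in heat shock genes (2 lower) and lysosomal genes (2 lower), and the fit over 18 libraries called all 11 mitochondrial messengers and 3 heat shock genes lower. Depth was 15081796 to 21882585 reads, and 5781 of the 17452 listed genes were too low to test. With 3 libraries a group, an uncalled gene is not shown to be level. The test of simulated counts called 50% of changes of 0.5 on the log2 scale, but with 200 genes changed. That share is far below the share called here, so the rate is not that of these data.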

Other observations

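Immediate early genes, the first transcription factors and phosphatases to answer a signal, were divided. Of 22 in the list, 10 were higher with CBD and 7 lower, with a median log2 fold change of 0.22, beside 23.9% higher and 24.8% lower among all genes tested. Klf4, a factor of macrophage polarisation, had normalized counts of 163, 180.1 and 165 in LPS and 412, 439 and 516 in LPS with CBD (log2 fold change 1.42, SE 0.119, limma adjusted p 2.50e-05). Jun, an AP-1 subunit, had 2075, 2159 and 2239 in LPS and 2613, 2949.7 and 2955 in LPS with CBD (0.39, limma adjusted p 0.00278), and Fos, its partner, fell, with 572, 716 and 631 in LPS and 316, 347 and 287 in LPS with CBD (-1.01, limma adjusted p 0.000132). Egr1 was not called (-0.23, limma adjusted p 0.569). Dusp6, a phosphatase of ERK, had 6464, 6355 and 6302 in LPS and 3014, 3412 and 2086 in LPS with CBD (-1.20, limma adjusted p 0.000229), whereas Dusp1, a phosphatase of p38 and JNK, had 285, 333 and 265 in LPS and 533, 736 and 728 in LPS with CBD (1.17, limma adjusted p 0.000196). LPS against EtOH had lowered 10 of the 22 and raised 1.

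Receptors and enzymes named in work on cannabinoids moved in both directions. Of 14 tested, 3 rose and 7 fell, beside 23.9% and 24.8% of all genes, with a median of -0.38. Without LPS replicate 3, 4 fell. Fabp5, a carrier of fatty acids and anandamide, rose (2426, 2849 and 2714 in LPS and 4664, 3805 and 4147 in LPS with CBD, 0.66, limma adjusted p 0.000499). Faah, which breaks down anandamide, fell (233, 322 and 265 in LPS and 173, 198 and 139 in LPS with CBD, -0.68, limma adjusted p 0.00797). Gpr18, a receptor of N-arachidonoyl glycine, fell too (28.9, 22.1 and 18.6 in LPS and 4.39, 6.79 and 4.45 in LPS with CBD, -1.96, limma adjusted p 0.00146). Gpr18 passed the filter through the LPS libraries alone, so it had to be lower with CBD. Cnr2, the cannabinoid receptor of immune cells, was not called (166, 160.2 and 176 in LPS and 141, 134 and 122 in LPS with CBD, -0.33, limma adjusted p 0.0525), except in the fit over all 18 libraries at 24 h (0.0229) and with a minimum mean count (0.0497). Trpv2, a cation channel, was not called (0.20, limma adjusted p 0.0647) except with the replicate block (0.0321), in the fit over 18 libraries (0.0156) or without LPS replicate 1 (0.0369).

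Immunoglobulin heavy chain transcripts were present in this microglial line, and were chosen for mention after their values were seen. The joining segments passed the filter through the LPS libraries alone, so they had to be lower with CBD. Ighm (ENSMUSG00000076617, chromosome 12, 113382178 to 113386350) had 2060.1, 2754 and 2655 in LPS and 424, 513 and 324 in LPS with CBD (log2 fold change -2.58, SE 0.167, limma adjusted p 6.22e-06). The joining segment Ighj1 had 30.1, 36.5 and 26.7 in LPS and 0, 9.70 and 2.67 in LPS with CBD and Ighj3 had 19.7, 11.1 and 16.2 in LPS and 0, 0 and 0 in LPS with CBD. Reads of such segments can be split among near-copies, and lymphocyte markers summed to at most 17.0 normalized counts in any of the 6 libraries.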
